A study of Homo sapiens with 10 samples.

Results

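TRA2A and TRA2B, the 2 human transformer-2 genes, were examined at every intron and exon that the deposited splicing tables list for them (GRCh37, gene models of GENCODE release 44 mapped to that build). TRA2A lies on the minus strand of chromosome 7 and TRA2B on the minus strand of chromosome 3. The tables list 34 exons and 15 splice junctions for TRA2A and 41 exons and 16 junctions for TRA2B, of 270665 exons and 126404 introns in all. The libraries were poly(A) RNA-seq of A549, an established lung adenocarcinoma cell line, with 2 libraries in each of 5 groups. The cells received the solvent DMSO, DRB at 10 or 25 µg/mL, or α-amanitin at 1 or 2 µg/mL for 24 h. DRB blocks kinases that RNA polymerase II needs for elongation, and α-amanitin is a mushroom toxin that binds the polymerase and slows it. How long DRB and DMSO were applied is a point not given in the sources used here. The study's methods speak of bioreplicates for its RNA-seq in general, and the labels give only a number for each library, so each p-value reflects how far such numbered libraries lie apart.

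TRA2A and TRA2B proteins are SR-like splicing factors that bind GAA-rich RNA and promote the inclusion of exons carrying such sequences. Each gene holds a poison exon, an alternative exon with an in-frame stop codon, and transcripts that include it are substrates of nonsense-mediated decay (NMD). TRA2 proteins promote inclusion of their own poison exons, which lowers the amount of productive mRNA, and this loop is a well-known case of autoregulation.

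The annotation gives TRA2A 12 transcripts, 3 of them protein coding, and TRA2B 15 transcripts, 4 of them protein coding. In both genes the poison exon lies in the first intron, between coding exons 1 and 2. The TRA2B poison exon is chr3:185649365-185649640 (276 nts). It occurs in an NMD transcript, in a retained-intron transcript and in a transcript without a defined coding sequence. The TRA2A poison exon is chr7:23561740-23562051 (312 nts). It occurs in a transcript without a defined coding sequence and in no annotated NMD transcript. It shares its acceptor with a version of 301 nts, found in an NMD and in a protein-coding transcript, and with a version of 79 nts, found in an NMD transcript. The sequences below run 5′ to 3′ on the transcribed strand. They are shown because they hold the premature stop codons, in capitals, that define a poison exon. That of TRA2A is annotated in the NMD transcript with the 301 nt version.
TRA2B poison exon from its first base to the stop codon (chr3:185649560-185649640): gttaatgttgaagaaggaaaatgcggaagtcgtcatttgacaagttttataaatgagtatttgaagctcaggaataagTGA
TRA2A poison exon, the 12 bases before the stop codon and the stop codon (chr7:23561908-23561922): agattggtcagaTAG

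The splice sites of both exons are shown next, since the junction reads below are counted at these sites. Capitals mark the last 2 intron bases at an acceptor and the first 2 intron bases at a donor. The acceptor windows of the paralogs had 20 identical bases of 23, and the longest run of bases shared by the exons themselves was 12.
TRA2B acceptor (chr3:185649638-185649660): cctgttctttttctattaAGgtt
TRA2A acceptor (chr7:23562049-23562071): aatgttctttttccattaAGgtt
TRA2B donor (chr3:185649359-185649367): taaGTaatt
TRA2A donor of the 312 nt version (chr7:23561734-23561742): aatGTatgg
TRA2A donor of the 301 nt version (chr7:23561745-23561753): tagGTtaag
TRA2A donor of the 79 nt version (chr7:23561967-23561975): aaaGTatta

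Both poison exons were rich in the purine motif AGAA, counted on the transcribed strand with overlaps allowed. The TRA2B poison exon held 12 copies and the TRA2A poison exon 13, and the shorter motif GAA, which every AGAA contains, occurred 28 and 32 times. Among the 37014 annotated exons of 248 to 304 nts, 75.9% held at least 1 AGAA and the median was 1 copy. Among the 33417 annotated exons of 281 to 343 nts, 79.1% held the motif and the median was 2. The coding exons discussed below held between 0 and 2 copies. The 30 bases of each poison exon with most GAA are printed to show this feature, with every AGAA in capitals.
TRA2B poison exon, bases 193 to 222 (chr3:185649419-185649448): gaatttgaaacggaAGAAtgaAGAAaAGAA
TRA2A poison exon, bases 184 to 213 (chr7:23561839-23561868): tgaattggggaAGAAtacacgaagtatgaa

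**Figure D1:**
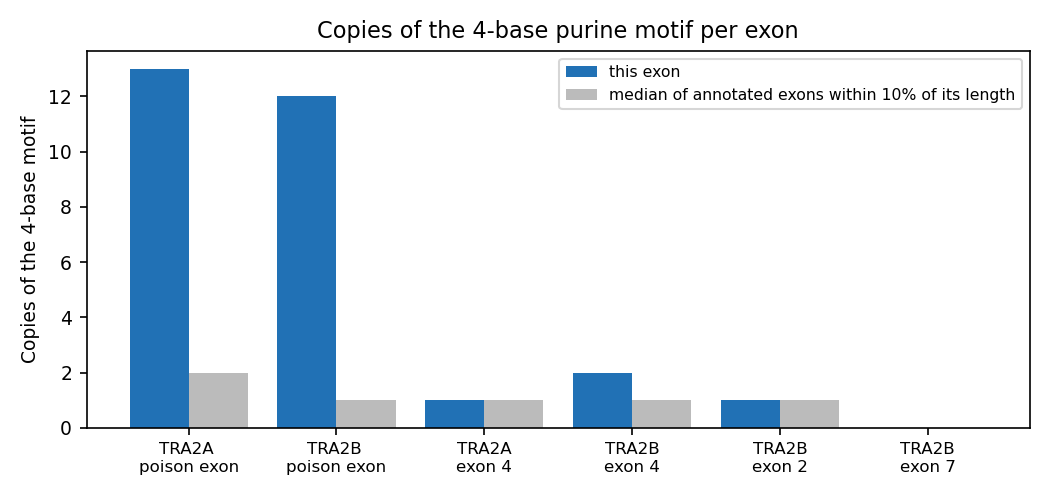
Copies of the motif AGAA (vertical axis) in 6 exons of TRA2A and TRA2B (blue bars) beside the median over all annotated exons within 10% of each length (grey bars). The poison exons stand at 13 and 12 copies, and the coding exons at 0 to 2.

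Library depth and the cell line were checked first. Split reads over all introns ranged from 2899344 to 6498515 per library, lowest in a library of 25 µg/mL DRB. The 25 µg/mL DRB libraries listed 45513 and 60620 introns, against 74739 to 90955 in the other 8. The markers set for A549 cells were KRT8, KRT18, KRT19, EPCAM, NQO1 and AKR1B10. Of these, KRT8, KRT18 and NQO1 had 815 to 2697, 228 to 4129 and 5926 to 9111 split reads. AKR1B10 had 0 to 232 reads, and no intron of KRT19 or EPCAM is listed. The markers of leukocytes (PTPRC), fibroblasts (COL1A2) and endothelium (PECAM1) were at 0 in every library. An unlisted intron can still hold reads, so a value of 0 does not show that a gene was not expressed.

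The first question was whether the amount of spliced TRA2 RNA differed between conditions. Both genes fell at 10 µg/mL DRB, TRA2A by 1.16 and TRA2B by 1.03 on the log2 scale, and neither passed the test in the other 3 comparisons. In bulk RNA of this kind, fewer cells of a type and less RNA per cell cannot be told apart. Levels are given as split reads per 1000000 (CPM) after TMM scaling, and were tested with limma voom on all genes with Benjamini-Hochberg adjustment. TRA2A stood at 109 and 108 CPM in DMSO and at 47.9 and 49.2 CPM at 10 µg/mL DRB. It stood at 90.3 and 82.6 CPM at 25 µg/mL DRB. The DRB libraries all lay below both DMSO libraries, and with TMM scaling the higher dose lay closer to DMSO than the lower dose. TRA2A reached 116 and 123 CPM at 1 µg/mL α-amanitin and 130 and 134 CPM at 2 µg/mL, all above both DMSO libraries. The log2 change was −1.16 (SE 0.14, limma adjusted p = 0.012) at 10 µg/mL DRB, −0.35 (adjusted p = 0.078) at 25 µg/mL, 0.13 (adjusted p = 0.7) at 1 µg/mL α-amanitin and 0.28 (adjusted p = 0.13) at 2 µg/mL.

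TRA2B stood at 300 and 357 CPM in DMSO. It stood at 159 and 161 CPM at 10 µg/mL DRB and at 229 and 272 CPM at 25 µg/mL. The values were 245 and 284 CPM at 1 µg/mL α-amanitin and 163 and 237 CPM at 2 µg/mL. Every treated library lay below both DMSO libraries, and the spread was widest at 2 µg/mL α-amanitin. For either TRA2 gene, the share of all genes that lie apart from DMSO in this way was not counted. The log2 change was −1.03 (SE 0.14, limma adjusted p = 0.012) at 10 µg/mL DRB, −0.38 (adjusted p = 0.064) at 25 µg/mL, −0.31 (adjusted p = 0.6) at 1 µg/mL α-amanitin and −0.73 (SE 0.19, adjusted p = 0.066) at 2 µg/mL. Whether TRA2A and TRA2B differed in their response to α-amanitin was not tested.

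**Figure D2:**
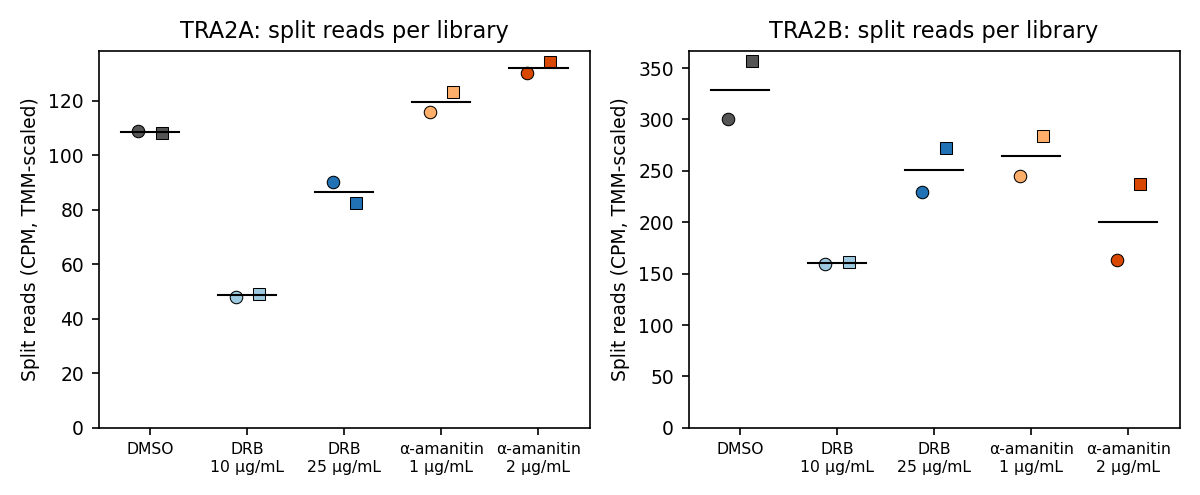
Split reads of TRA2A (left) and TRA2B (right) in TMM-scaled CPM (vertical axis) in each library, by group. Circles are replicate 1, squares replicate 2, and lines the group means. At 10 µg/mL DRB, TRA2A lies at 47.9 and 49.2 and TRA2B at 159 and 161.

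Over all genes, limma called 8.19% of 9314 higher and 6.47% lower at 10 µg/mL DRB, and 20.2% higher and 40.8% lower at 25 µg/mL. At 1 µg/mL α-amanitin it called 0 of 9473 genes (0% in either direction), with 947 at an unadjusted p under 0.05, and at 2 µg/mL it called 2.3% higher and 3.75% lower. The median log2 change of all genes was 0.03 at 10 µg/mL DRB and −1.01 at 25 µg/mL, so at the higher dose both TRA2 genes lay above the median gene. Scaling by total split reads instead moved that median by 0.14 and by −0.47. With it the changes at 25 µg/mL DRB were −0.85 for TRA2A (limma adjusted p = 0.0045) and −0.86 for TRA2B (adjusted p = 0.0022), both past the threshold. The TRA2A change at 10 µg/mL DRB was −1.02 with total scaling, so its doses lay closer together than with TMM. The total scaling called 1126 genes higher and 566 lower at 10 µg/mL DRB (763 and 603 with TMM), 1328 and 4752 at 25 µg/mL (1878 and 3798), and 272 and 263 at 2 µg/mL α-amanitin (218 and 355). The calls at 10 µg/mL DRB were lost when any 1 of the 4 DMSO and 10 µg/mL libraries was left out, with limma adjusted p from 0.06 to 0.11 in both genes.

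Along the transcripts, the DRB changes spanned a wider range of log2 values over the coding junctions of TRA2A than over those of TRA2B, a description without a test. Here the reads are scaled by the total split reads of each library, and the ratio is that of group means. The 8 introns of TRA2B changed by −0.56 to −1.06 on the log2 scale at 10 µg/mL DRB, and at 25 µg/mL by −0.66 to −1.31, with intron 4 lowest at both doses. In TRA2A the change was −1.53 at intron 4 and −0.95 at intron 3 at 10 µg/mL DRB, and −1.56 and −0.58 at 25 µg/mL. The TRA2A junction of intron 4, joining bases 23547154 and 23552513, held 87 and 92 reads in DMSO, 23 and 39 at 10 µg/mL DRB and 21 and 32 at 25 µg/mL. Its neighbour, intron 3, joining 23552701 and 23555982, held 80 and 83, then 39 and 43, then 41 and 51 reads. All DRB libraries lay below DMSO at both junctions, and the share of all junctions that do so was not counted. At 2 µg/mL α-amanitin TRA2A introns 1 to 4, 6 and 7 lay between 0.20 and 0.40, and TRA2B introns between −0.47 and −0.82. Junctions of 1 transcript differed widely in reads, by 7.02-fold in mean DMSO CPM across TRA2B, so each junction is compared only with itself. TRA2A intron 5, joining 23545885 and 23547039, is listed in only 4 libraries, with 13 to 19 reads, and is not drawn.

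**Figure D3:**
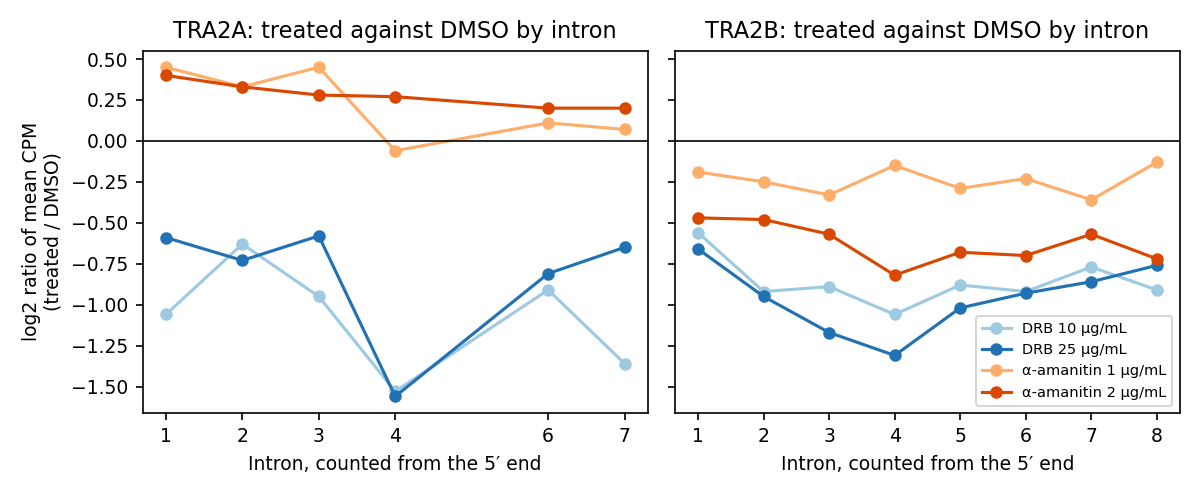
log2 ratio of mean CPM, treated over DMSO (vertical axis), for each coding intron counted from the 5′ end (horizontal axis), in TRA2A (left) and TRA2B (right). Introns listed in all 10 libraries are shown. The DRB lines of TRA2A drop to −1.53 and −1.56 at intron 4, and all lines of TRA2B lie below 0.

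Inclusion of the poison exons was examined next. The rate Ψ is the number of inclusion reads (inc) divided by inc plus 2 times the skipping reads (exc), since an included exon can be crossed at both of its junctions. The TRA2B poison exon was skipped in most transcripts of all libraries, and its Ψ over both junctions was lower in every treated library than in DMSO. With the upstream junction alone the groups overlapped, as given below. In DMSO it had 23 and 27 inc reads against 61 and 69 exc reads (Ψ 0.159 and 0.164). At 10 µg/mL DRB it had 9 and 13 inc against 45 and 42 exc reads (Ψ 0.091 and 0.134). At 25 µg/mL DRB it had 5 and 7 inc against 29 and 64 exc reads (Ψ 0.079 and 0.052). These libraries held the lowest inclusion among the DRB groups, and neither dose overlapped DMSO. At 1 µg/mL α-amanitin it had 14 and 16 inc against 53 and 89 exc reads (Ψ 0.117 and 0.082), and at 2 µg/mL 13 and 10 inc against 45 and 73 exc reads (Ψ 0.126 and 0.064). The α-amanitin libraries also lay below both DMSO libraries.

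Both libraries of a group lay below both DMSO libraries in a sizeable part of all tested exons, 24.3% and 57.9% at 10 and 25 µg/mL DRB and 20.4% and 30.6% at 1 and 2 µg/mL α-amanitin. The 4 comparisons share the DMSO libraries. In the quasi-binomial test of inc against exc over all exons (spread moderated by limma), the TRA2B poison exon passed the threshold at 25 µg/mL DRB, with a change of −0.100 in pooled Ψ and of −1.53 in log2 odds (limma-moderated adjusted p = 0.049). At that dose 40.4% of the 10875 tested exons were called lower. The log2 odds differed by −0.59 at 10 µg/mL DRB (adjusted p = 0.53), by −0.85 at 1 µg/mL α-amanitin (adjusted p = 0.63) and by −0.96 at 2 µg/mL (adjusted p = 0.3). The call at 25 µg/mL was lost under 5 other forms of the fit, with adjusted p of 0.06 to 0.13, and when any 1 library of the fit was left out, with 0.074 to 0.34.

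The inclusion reads of the TRA2B poison exon come from 2 junctions. The upstream junction, joining 185649640 and 185655613, held 10 and 20 reads in DMSO, 9 and 10 at 10 µg/mL DRB, and 5 and 7 at 25 µg/mL. It held 10 and 13 reads at 1 µg/mL α-amanitin and 8 and 10 at 2 µg/mL. Scaled to the total split reads of the library, DMSO stood at 2.33 and 4.20 CPM and the treated libraries between 1.35 and 2.28 CPM, all lower. The downstream junction, joining 185644522 and 185649365, held 13 and 7 reads in DMSO. Of the 4 DRB libraries it is listed in 1, at 10 µg/mL, with 3 reads. With α-amanitin it held 4 and 3 reads at 1 µg/mL, and at 2 µg/mL it is listed in 1 library with 5, and all of these counts lie below DMSO. How many of all junctions lie below DMSO in this way was not counted. Junctions that did not pass the filters of the tables are left out, so an unlisted one is not shown to be absent. The exon of 42 nts that ends at the same donor (chr3:185649365-185649406, a retained-intron transcript) is counted by the downstream junction alone. It went from a pooled Ψ of 0.071 in DMSO to 0.000 at 25 µg/mL DRB (limma-moderated adjusted p = 0.045). Its inc reads were 13 and 7 in DMSO, 0 and 3 at 10 µg/mL DRB and 0 in both 25 µg/mL libraries. The filter needs inc reads, so this exon was tested in the DRB fit only because of its DMSO reads. The exon of 338 nts counted by the upstream junction alone (chr3:185649303-185649640) went from 0.103 to 0.061 (adjusted p = 0.23). Its Ψ was 0.076 and 0.127 in DMSO, 0.091 and 0.106 at 10 µg/mL DRB and 0.079 and 0.052 at 25 µg/mL. With α-amanitin it was 0.086 and 0.068 at 1 µg/mL and 0.082 and 0.064 at 2 µg/mL, so every treated group overlapped DMSO. The skipping junction to exon 2, joining 185644522 and 185655613, held 55 and 62 reads in DMSO and between 20 and 79 in the treated libraries. The exc reads also count the junction from exon 1 to exon 3, joining 185643414 and 185655613. That junction held 6 and 7 reads in DMSO and 9 and 15 at 25 µg/mL DRB, so reads that skip exon 2 also count as skipping the poison exon.

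The TRA2A poison exon had fewer reads, and its libraries disagreed within groups. The junction of its own donor, joining 23561459 and 23561740, is listed in 2 libraries only. It held 8 reads in replicate 2 at 10 µg/mL DRB and 7 in replicate 1 at 2 µg/mL α-amanitin. In the other libraries, all inc reads come from the acceptor that the versions share. In DMSO the TRA2A poison exon had 9 inc and 27 exc reads in replicate 1 (Ψ 0.143) and 0 inc and 36 exc reads in replicate 2. At 10 µg/mL DRB it had 6 and 14 inc against 7 and 24 exc reads (Ψ 0.300 and 0.226), and at 25 µg/mL 3 and 3 inc against 16 and 19 exc reads (Ψ 0.086 and 0.073). Both libraries of 10 µg/mL DRB lay above both DMSO libraries, and those of 25 µg/mL lay between them. How many of all exons lie above DMSO in this way was not counted. At 1 µg/mL α-amanitin it had 5 and 8 inc against 39 and 73 exc reads (Ψ 0.060 and 0.052). At 2 µg/mL α-amanitin it had 21 inc and 41 exc reads in replicate 1 (Ψ 0.204) and 0 inc and 75 exc reads in replicate 2, the widest gap between replicates of any group. The log2 odds differed from DMSO by 2.12 at 10 µg/mL DRB (limma-moderated adjusted p = 0.42), 0.29 at 25 µg/mL (adjusted p = 0.91), −0.32 at 1 µg/mL α-amanitin (adjusted p = 1) and 0.30 at 2 µg/mL (adjusted p = 0.95). Over all exons, the test called 0.0276% lower at 10 µg/mL DRB. With 1 µg/mL α-amanitin it called 0 of 10341 exons (0%, 956 at an unadjusted p under 0.05) and at 2 µg/mL 0.029% of them in either direction. Fisher's exact test on the pooled reads, which ignores the spread between libraries, gave an adjusted p of 0.0064 for the 312 nt version at 10 µg/mL DRB and of 0.14 for the 301 and 79 nt versions. The versions differ there by 8 reads at the 312 nt donor in replicate 2. For the 301 nt version, pooled Ψ was 0.067 in DMSO and 0.162 at 10 µg/mL DRB (limma-moderated adjusted p = 0.73), and its values of 0.300 and 0.111 overlapped DMSO.

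**Figure D4:**
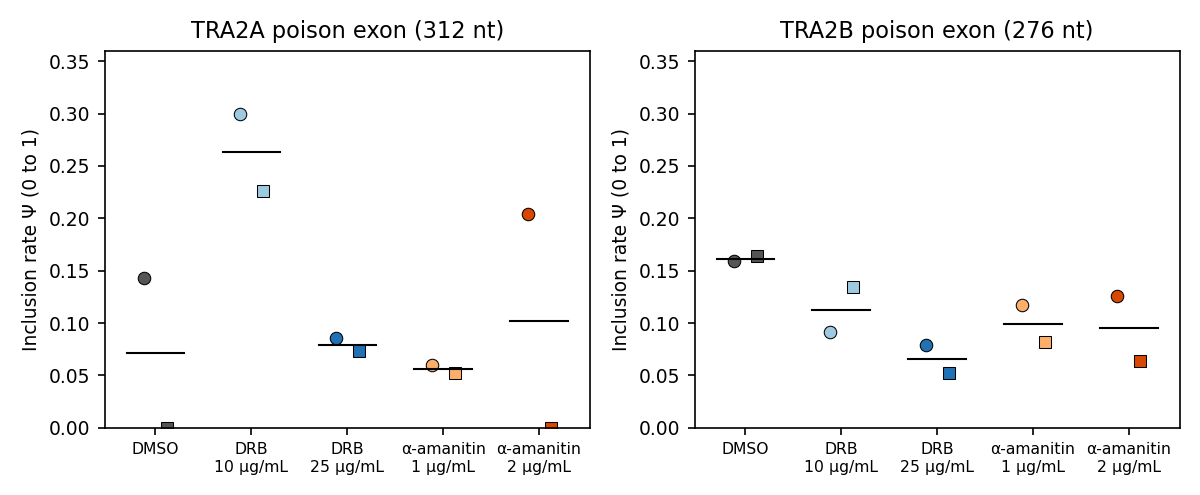
Inclusion rate Ψ (vertical axis, 0 to 1) of the poison exon of TRA2A (left) and TRA2B (right) in each library. Circles are replicate 1, squares replicate 2, and lines the group means. In TRA2B the DMSO libraries (0.159 and 0.164) lie above all others, and in TRA2A the DMSO libraries lie at 0.143 and 0.

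All splicing choices of the first exon were then read from its donor. Of the reads leaving TRA2B exon 1 in DMSO, 73.6% ± 5.52 (SD, n = 2) went to coding exon 2, 18.3% ± 5.94 to the poison exon and 8.2% ± 0.424 straight to coding exon 3. These shares were 63.9% ± 7.21, 12.3% ± 3.39 and 23.8% ± 3.82 at 25 µg/mL DRB. The exon 3 share at 25 µg/mL rested on 9 of 34 and 15 of 71 reads against 6 of 71 and 7 of 89 in DMSO, and both libraries lay above DMSO. Both also lay below DMSO in the exon 2 share, with 58.8% and 69.0% against 77.5% and 69.7%. The poison exon share overlapped DMSO there and in every other treated group. At 2 µg/mL α-amanitin 77.4% ± 8.06 went to exon 2, 13.6% ± 2.19 to the poison exon and 9.0% ± 5.94 to exon 3. No test was run on these shares, and their SDs cover 2 libraries each. How many of all donors have shares that lie apart from DMSO in this way was not counted.

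From TRA2A exon 1, 82.5% ± 10.6 of the reads in DMSO went to coding exon 2, 12.5% ± 17.7 to the poison exon and 5.0% ± 7.07 to an exon of 90 nts (chr7:23570800-23570889). The latter belongs to 2 protein-coding transcripts and lies outside their coding sequence. Its inc reads were 0 and 4 in DMSO, 5 and 4 at 10 µg/mL DRB, 0 and 5 at 25 µg/mL, 11 and 6 at 1 µg/mL α-amanitin and 29 and 12 at 2 µg/mL, against 36 and 36, 13 and 30, 19 and 22, 41 and 75, and 38 and 71 exc reads. Ψ was 0.276 and 0.078 at 2 µg/mL α-amanitin, above the DMSO values of 0 and 0.053, and how many of all exons do the same was not counted. Pooled Ψ differed by 0.131 there and did not pass the test (limma-moderated adjusted p = 0.34), and the log2 odds ranged from 1.49 to 4.79 with each library left out, while pooling reads and using Fisher's exact test gave an adjusted p of 0.00047. Replicate 1 at 2 µg/mL α-amanitin also listed 10 reads joining this exon to the poison exon, at 23562051 and 23570800, a junction listed in no other library.

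Skipping of coding exons was seen in TRA2B at 25 µg/mL DRB. Exon 4 (chr3:185641584-185641772, 189 nts, 63 codons) encodes part of the RNA recognition motif, the domain that binds RNA. It had no listed skipping read in either DMSO library, against 298 and 420 inc reads, nor in 10 µg/mL DRB or 1 µg/mL α-amanitin. At 25 µg/mL DRB it had 31 and 11 exc reads against 95 and 175 inc reads (Ψ 0.605 and 0.888), and at 2 µg/mL α-amanitin 3 and 0 exc reads against 212 and 347. Pooled Ψ fell by 0.237 at 25 µg/mL DRB (limma-moderated adjusted p = 0.024). The filter needs exc reads, and in the DRB fit all of them came from the 25 µg/mL libraries. Exon 4 could thus be tested only because that group skips it. The junction that skips it, joining 185639914 and 185643252, is not annotated and held 28 and 11 reads at 25 µg/mL DRB and 3 in replicate 1 at 2 µg/mL α-amanitin. The paralogous exon 4 of TRA2A (chr7:23552513-23552701) has the same length and 73.0% identical bases (138 of 189). It had 3 skipping reads in all, in replicate 2 at 2 µg/mL α-amanitin, and none at 25 µg/mL DRB against 62 and 83 inc reads. Exon 4 of both genes is printed for this comparison, with every AGAA in capitals, and the splice sites of TRA2B exon 4 follow as above.
TRA2B exon 4: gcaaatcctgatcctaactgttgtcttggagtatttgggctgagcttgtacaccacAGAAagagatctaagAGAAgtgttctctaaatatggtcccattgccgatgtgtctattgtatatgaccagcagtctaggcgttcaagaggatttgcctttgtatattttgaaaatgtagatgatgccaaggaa
TRA2A exon 4: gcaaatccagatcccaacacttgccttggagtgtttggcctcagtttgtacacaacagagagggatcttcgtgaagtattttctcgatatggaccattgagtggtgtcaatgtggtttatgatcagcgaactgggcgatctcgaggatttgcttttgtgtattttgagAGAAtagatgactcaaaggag
TRA2B exon 4 acceptor (chr3:185641770-185641792): aaacttttttttttccctAGgca
TRA2B exon 4 donor (chr3:185641578-185641586): gaaGTaagt

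Exon 7 (chr3:185637225-185637284, 60 nts, 20 codons) showed the same pattern with fewer reads. It had no exc read in 8 libraries and 9 and 4 at 25 µg/mL DRB, against 44 and 97 inc reads (Ψ 0.710 and 0.924). Pooled Ψ fell by 0.156 (limma-moderated adjusted p = 0.035). As with exon 4, all exc reads that let exon 7 pass the filter came from the 25 µg/mL libraries. Exon 2 (chr3:185644389-185644522, 134 nts, not a multiple of 3) was skipped in every library. Its Ψ was 0.933 and 0.937 in DMSO, 0.942 and 0.866 at 10 µg/mL DRB, 0.731 and 0.820 at 25 µg/mL DRB, and between 0.893 and 0.963 with α-amanitin. The 25 µg/mL libraries were the lowest, and pooled Ψ fell by 0.140 (limma-moderated adjusted p = 0.036). Altogether 11 of 17 tested TRA2 exons were called lower at 25 µg/mL DRB, all of the 11 in TRA2B, beside the 40.4% given above for all exons. These 11 are versions of 4 splicing events, exons 2, 4 and 7 and the poison exon, and share reads. Those of exons 4 and 7 were among the tested exons only through the 25 µg/mL libraries. The exon of 42 nts at the poison exon donor was among them only through the DMSO libraries. None of the 17 was called at 10 µg/mL DRB, nor of the 12 tested with α-amanitin, and in those comparisons none had an unadjusted p under 0.05. For exon 7 and the versions of exon 4, the 10 µg/mL comparison could give no call. They had no exc read there or in DMSO. The calls of exons 2 and 4 were lost when any 1 library of the fit was left out, exon 2 with limma-moderated adjusted p from 0.06 to 0.19 and exon 4 from 0.058 to 0.12. That of exon 7 was lost without either DMSO library or either 10 µg/mL DRB library (0.074 to 0.15). All 3 calls were also lost in the fit of DMSO and 25 µg/mL DRB alone (0.054 to 0.069).

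**Figure D5:**
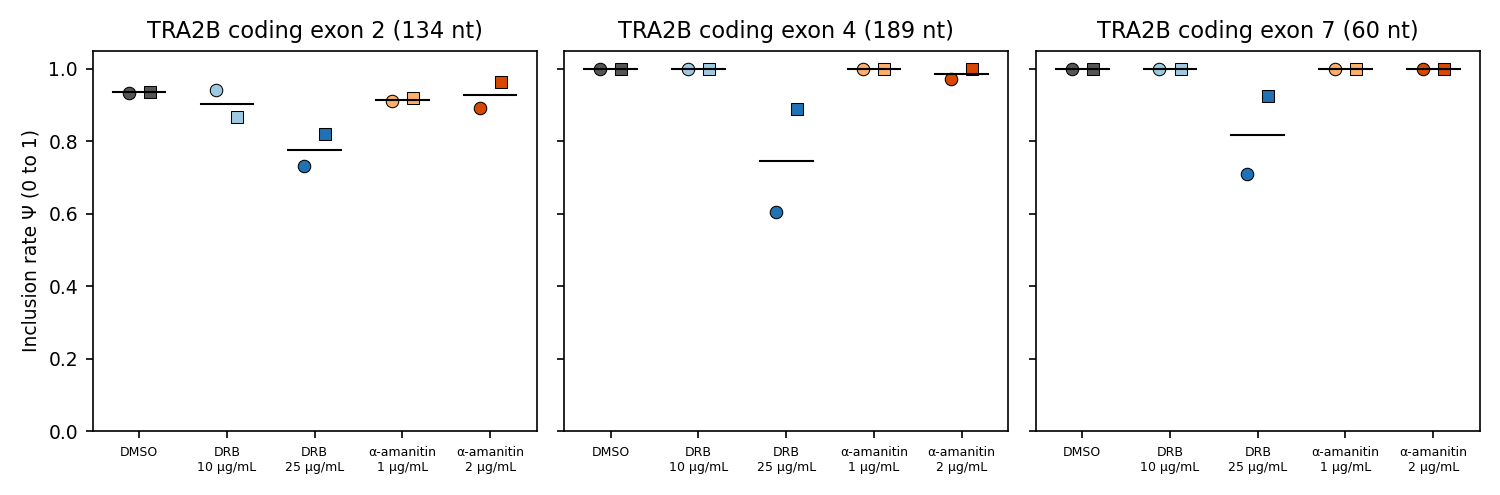
Inclusion rate Ψ (vertical axis, 0 to 1) of TRA2B coding exons 2, 4 and 7 in each library. Circles are replicate 1, squares replicate 2, and lines the group means. Exons 4 and 7 lie at 1 in both DMSO libraries and at 0.605 and 0.888, and 0.710 and 0.924, at 25 µg/mL DRB.

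The other 2 unannotated TRA2B junctions were listed at 25 µg/mL DRB and in no other group. The junction from 185639914 to an acceptor at 185640951 held 6 reads in replicate 2, and the junction joining 185637284 and 185643252, which skips exons 4 to 6, held 3 reads in replicate 1. The last internal exon of both genes starts at a tandem acceptor, where a second AG lies 3 bases downstream. Use of the downstream acceptor was rare, with 4 TRA2B reads each in a library of 25 µg/mL DRB and of 2 µg/mL α-amanitin, and 5 and 6 TRA2A reads in libraries of 1 and 2 µg/mL α-amanitin. The upstream acceptor of TRA2B held 20 to 84 reads and that of TRA2A 22 to 102. Capitals mark the 2 bases before each exon start.
TRA2B tandem acceptors (chr3:185636221-185636246): atcttgacatttgtttatAGaAGgcg
TRA2A tandem acceptors (chr7:23545427-23545452): taatctttcatttcttacAGaAGacg

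Reads that cross an exon border without splicing were few. Of 4 TRA2 introns tested at 25 µg/mL DRB, all of TRA2B, 1 was called higher, intron 4, joining 185639914 and 185641584, which lies next to the skipped exon 4. It had 0 unspliced reads in both DMSO libraries and at 10 µg/mL DRB, and 12 and 6 at its donor and 3 and 3 at its acceptor at 25 µg/mL, against 50 and 74 split reads (limma-moderated adjusted p = 0.04). The filter needs an unspliced read in the fit, so this intron was tested only because of its reads at 25 µg/mL DRB. At that dose 1.65% of the 8946 tested introns were called higher. At 2 µg/mL α-amanitin intron 4 had 5 unspliced reads in replicate 1 and 0 in replicate 2. Intron 7, joining 185636226 and 185637225, was not called at 25 µg/mL DRB (log2 odds 6.46, limma-moderated adjusted p = 0.088). It had 0 unspliced reads in DMSO, and 9 and 13 at its acceptor at 25 µg/mL DRB. It also had 11 in replicate 2 at 10 µg/mL DRB and 13 in replicate 2 at 2 µg/mL α-amanitin. At 25 µg/mL DRB the log2 odds were 4.11 at intron 3 and −2.41 at intron 1, neither called. At 10 µg/mL DRB and at both α-amanitin doses, 0% of tested introns passed in either direction (646, 699 and 1213 at an unadjusted p under 0.05). The call was lost when any 1 library of the fit, or both 10 µg/mL libraries, were left out. In TRA2A, introns 2 to 7 had no unspliced read in any library that lists them, and intron 1 had at most 14 at its acceptor and 7 at its donor.

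Of the exons found only in noncoding or NMD transcripts, 18 in TRA2A and 24 in TRA2B, most share a splice site with a coding exon, so their reads cannot be told apart from that exon's. Exons with sites of their own numbered 3 in TRA2A and 6 in TRA2B. Beyond the poison exons and the versions given above, these are an exon of 264 nts in TRA2A (chr7:23571036-23571299) and exons of 77, 2992 and 363 nts in TRA2B (chr3:185652217-185652293, chr3:185652217-185655208 and chr3:185654026-185654388). None of the latter 4 had an inclusion read in any library.

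Other genes of this regulatory system were counted from 3 lists. SR proteins (SRSF1 to SRSF12) are the splicing factors to which TRA2 proteins are related, and several carry poison exons of their own. Of 11 tested at 10 µg/mL DRB, 0 were higher and 4 lower, where 8.19% of all genes were called higher and 6.47% lower, with a median log2 change of −0.51 against 0.03 for all genes. The 4 were SRSF2 (−0.67, SE 0.12, adjusted p = 0.019), SRSF3 (−0.82, SE 0.13, adjusted p = 0.017), SRSF7 (−1.44, SE 0.18, adjusted p = 0.012) and SRSF12, which fell from 2.83 CPM to no listed read, all by limma. SRSF12 held 11 and 14 reads in DMSO and no listed read in any treated library. It was among the tested genes only through its DMSO reads, at both DRB doses. No member of the list was called at 10 µg/mL DRB when any 1 of the DMSO or 10 µg/mL libraries was left out. At 25 µg/mL DRB 1 was higher and 8 lower, where 20.2% and 40.8% of all genes were called, with a median of −1.14 against −1.01 for all genes. SRSF4 rose from 37.3 to 70.2 CPM. SRSF3 fell from 669 to 107 CPM, SRSF7 from 610 to 91.3, SRSF2 from 180 to 45.6, SRSF5 from 249 to 114, SRSF10 from 101 to 59.4, SRSF6 from 44.8 to 3.86 and SRSF1 from 35.5 to 16.4, besides SRSF12, and without DMSO replicate 2 only 4 members were called. With 1 µg/mL α-amanitin limma called 0 of 11, with 3 at an unadjusted p under 0.05. At 2 µg/mL 0 were higher and 3 lower, where 2.3% and 3.75% of all genes were called, with a median of −0.58 against 0.05, namely SRSF2 (−0.58), SRSF3 (−1.15) and SRSF10 (−0.92), with adjusted p from 0.025 to 0.041 in limma, of which at most 1 was called when any 1 library was left out.

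The kinases CLK1 to CLK4, SRPK1 and SRPK2 phosphorylate SR and TRA2 proteins. Of the 6, 1 was called at 10 µg/mL DRB, CLK4, which fell from 3.97 CPM to no listed read and was not called when any 1 library was left out. CLK4 held 24 and 10 reads in DMSO and no listed read in any DRB library, so it was tested in the DRB fit only through its DMSO reads. Over all genes 6.47% were called lower at this dose, and the list's median was −0.17 against 0.03. At 25 µg/mL DRB CLK3 rose from 33.5 to 130 CPM, and CLK2 (72.0 to 32.0), CLK4, SRPK1 (120 to 44.3) and SRPK2 (39.7 to 3.57) fell. These 5 of 6 calls stand beside 20.2% higher and 40.8% lower over all genes, with a list median of −1.26 against −1.01. Leaving out a DMSO or a 25 µg/mL library left 2 or 3 calls in place of 5. With α-amanitin limma called none of the 6 at either dose, with 0 and 4 at an unadjusted p under 0.05. NMD factors, here proteins of the UPF and SMG groups, degrade transcripts with premature stops. Of 10 tested at 10 µg/mL DRB, 3 rose, among them UPF1 (0.76, SE 0.11, limma adjusted p = 0.012) and SMG5 (0.57, SE 0.11, adjusted p = 0.028), with 8.19% of all genes called higher and a list median of 0.54 against 0.03, and none was called when any 1 of the DMSO or 10 µg/mL libraries was left out. UPF1 (0.77) also rose at 25 µg/mL DRB, where SMG9 fell from 64.5 to 15.9 CPM and UPF3B from 20.9 CPM to no listed read. In all 2 of 10 were higher and 2 lower there, beside 20.2% and 40.8% over all genes. With 1 µg/mL α-amanitin, 0 of 10 were called by limma, with 1 at an unadjusted p under 0.05, and at 2 µg/mL SMG9 fell from 64.5 to 15.8 CPM (adjusted p = 0.025), a call lost when any 1 library was left out.

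Among 6815 genes, those whose log2 CPM over the 10 libraries followed TRA2A most closely were EPB41L2 (Pearson r 0.984), OAT (0.968), TPM4 (0.961), HMGN3 (0.943) and AGBL5 (0.942). For TRA2B they were DDX39A (0.959), C1QBP (0.958), KRT10 (0.954), HAVCR1 (0.953) and PHF19 (0.940). TRA2A and TRA2B themselves had an r of 0.546. The points are the libraries of 5 groups, which share their scaling, and the values are a description.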

How the data were processed

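Poly(A) RNA of A549 cells was sequenced by the authors in 10 libraries, 2 in each of 5 groups. Per the labels and the study's methods, the reads were aligned to GRCh37 (STAR 2.7.3a in the submitters' processing notes) and split reads were counted with the IPSA pipeline. The study's methods name a different version of STAR, and which of them was used is not known here. The deposited files hold raw read counts without normalization in a text field, inc and exc for an exon and split (nDA) and unspliced (nD, nA) reads for an intron. Per the study's methods, junctions were filtered on the entropy of read offsets, annotation and GT/AG sites. In the files, the lowest listed nDA was 3 and the lowest sum over an intron's read classes 11. An unlisted intron is taken as 0 here, though it can hold reads, which are then missing from the sums per gene. In DMSO replicate 1, TRA2A exon 5 had 97 inc reads against 87 on the junction of intron 4. Its other junction, intron 5, is unlisted in that library.

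From these, split reads were summed per gene over 117288 introns given to 1 gene (5420 shared introns were left out). The sums were scaled by an own implementation of TMM and fitted with limma 3.58.1 voom in R 4.3.3, keeping genes that reached 10 reads in 2 libraries and a sum of 15. A quasi-binomial model compared inc with exc per exon and nD + nA with nDA per intron, its spread was moderated by limma and not allowed under 1, and an F test was used. DMSO entered each fit together with the 2 doses of a drug, giving 6 libraries, and p-values were Benjamini-Hochberg adjusted over all features with a threshold of 0.05. Kept exons had inc + 2 exc of 10 or more per library and 10 or more inc and exc reads over the fit. Kept introns had 20 or more reads per library and an unspliced read in the fit. Log2 odds had 0.5 added to both counts. Sequences were read by coordinates from the GRCh37 genome.

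The rule fixed for the poison exon, the internal exon of noncoding or NMD transcripts with most inc reads, picked exons that share a splice site with coding exons, so exons without such a shared site were required, a departure. Named were the poison exons and their junctions, other noncoding-only exons with at least 10 inc reads and sites of their own, the coding exons with the widest range of pooled Ψ, every feature past the threshold, and the 5 genes most correlated with each. The members and lists were chosen with earlier results of these data known. Alternatives covered scaling, filters, the model, the libraries in the fit, a replicate block and leaving out each library. All tests were tested on simulated data. There, the adjusted exon test found changed exons only when many exons changed. Replicates differed by more than sampling noise in every group (chi-squared per degree of freedom 7 to 17 over genes). A member of the NMD list is not reported here by name.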

Additional observations from a re-analysis of the deposited data

How the results depend on the processing

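The gene calls of TRA2A and TRA2B kept their direction under all alternatives run. TRA2A at 25 µg/mL DRB passed with the introns listed in every library (−0.56) and with total scaling (−0.85), and TRA2B with both (−0.68 and −0.86). TRA2B at 2 µg/mL α-amanitin passed with all 10 libraries in 1 fit (−0.73) and with introns listed in every library (−0.74). The replicate numbers are not known to pair libraries (correlations of same-number deviations 0.00 to 0.49 with 2 numbers). With the replicate as a block, TRA2B passed at 25 µg/mL DRB (−0.39) and 2 µg/mL α-amanitin (−0.72), its poison exon (−1.53, adjusted p = 0.13) and intron call (0) at 25 µg/mL DRB were lost, as were its exons 2 (adjusted p = 0.13), 4 (0.084) and 7 (0.085), and 2 µg/mL α-amanitin had 5 SR, 1 kinase and 2 NMD calls.

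The TRA2B poison exon at 25 µg/mL DRB missed the threshold, at −1.53 each, with the floor set before the moderation (chosen after seeing the data), no low-count filter or DMSO and the treated group alone, and at −1.40 with limma on log2 odds. The intron count was then 0 in the fit of DMSO and the treated group alone. Fisher's exact test passed it at 2 µg/mL α-amanitin (−0.96) and TRA2A at 10 µg/mL DRB (2.12). The TRA2A poison exon reversed with limma on log2 odds at 1 (0.88) and 2 µg/mL α-amanitin (−0.23), and there with the 79 nt donor (−0.27, chosen after seeing the data). The floor set before the moderation called 992, 6077, 25 and 295 exons in the 4 comparisons, against 3, 5140, 0 and 3.

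With each library left out in turn, log2 changes ranged from −1.17 to −1.14 (TRA2A gene, 10 µg/mL DRB), −1.15 to −0.90 (TRA2B gene, 10 µg/mL DRB), −1.0 to −0.46 (TRA2B gene, 2 µg/mL α-amanitin) and −1.73 to −1.05 (TRA2B poison exon, 25 µg/mL DRB). The TRA2B poison exon ranged from −0.89 to −0.28 at 10 µg/mL DRB and −1.44 to −0.38 at 2 µg/mL α-amanitin. The TRA2A poison exon ranged from 0.91 to 5.57 at 10 µg/mL DRB, −0.92 to 3.74 at 25 µg/mL DRB, −1.53 to 3.13 at 1 µg/mL α-amanitin and −4.50 to 3.75 at 2 µg/mL, where it was also −0.90 without DMSO replicate 2. The 90 nt exon ranged from −1.28 to 3.27 at 25 µg/mL DRB, and TRA2B exon 2 from −1.19 to 0.01 at 10 µg/mL DRB and −0.82 to 0.75 at 2 µg/mL α-amanitin. List calls ranged from 0 to 3 (NMD) and 0 to 4 (SR) at 10 µg/mL DRB, 4 to 8 (SR) and 2 to 5 (kinases) at 25 µg/mL, and 0 to 1 (SR) at 2 µg/mL α-amanitin. Kinases at 10 µg/mL DRB, NMD factors at 2 µg/mL α-amanitin and the TRA2B intron at 25 µg/mL DRB had 0. The cause of these changes was not tested. Too few reads remained for TRA2B exon 7 without either 25 µg/mL DRB library, for the TRA2A poison exon with a denominator of 30 in the DRB fit, and for the 90 nt exon with DMSO and 25 µg/mL DRB alone, so these could not be fitted. Of the values of main comparisons under alternatives, 327 kept their direction and side of the threshold (for counts, stayed within 1.5 times), 42 counts moved further, 19 values lost and 11 gained a call, and 7 reversed. These counts leave out TRA2B exons 2, 4 and 7 and the 90 nt exon of TRA2A. For those exons 110 values kept direction and side of the threshold, 23 lost and 1 gained a call, and 3 reversed. The TRA2A poison exon had 69 inclusion reads in all.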
